A study of Mus musculus with 8 samples.

Results

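The 7 mouse sirtuins (Sirt1 to Sirt7), the coactivator gene Ppargc1a, the mitochondrial transcription factor gene Tfam and the NAD-synthesis gene Nampt were followed in kidney RNA, 10 genes of the 30153 gene identifiers in the table. They were chosen by symbol, and each had a row under the Ensembl identifier that the mouse annotation gives it. Of the 10, 9 passed a filter of a mean of at least 1 TPM and were among the 11796 genes tested, and Sirt5 did not. TPM (transcripts scaled by length and by the total of their library) is a relative abundance, so levels of different genes can be compared.

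The kidneys came from aged Haplotype-II (Hap-II) mice on a western diet, 4 animals, and from adult Hap-II mice on a western diet, 4 animals. All were of strain C57/BL6, and the study describes them as hypertensive mice that overexpress the human angiotensin receptor type 1. Animals of both groups thus carried the transgene and ate the same diet, and no group without either was analysed here. The sources used here give neither the ages, nor the sex of the animals, nor the promoter that drives the transgene. The comparison asks how the aged kidney differs from the adult one in this setting.

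Sirtuins are enzymes that remove acetyl and other acyl groups from proteins and consume NAD in doing so. Sirt1, Sirt6 and Sirt7 act mainly in the nucleus, Sirt2 mainly in the cytosol, and Sirt3, Sirt4 and Sirt5 in mitochondria. Nampt makes the rate-limiting enzyme of NAD salvage from nicotinamide, Ppargc1a makes a coactivator that drives mitochondrial biogenesis, and Tfam packages mitochondrial DNA and starts its transcription. Tubule cells of the kidney are rich in mitochondria and depend on them for salt and solute transport.

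Read depth is unknown, since TPM keeps none, and between 10663 and 12293 genes per library reached 1 TPM. Transcripts of the 13 protein-coding mitochondrial genes took between 26.8% and 46.9% of the TPM scale in aged libraries and between 19.6% and 26.1% in adult ones. All other genes share what is left, and over all genes tested the log2 fold changes, aged over adult, had a median of −0.11. The summed Y-linked Ddx3y, Kdm5d, Eif2s3y and Uty split the libraries: replicates 3 and 4 of both groups had between 34.7 and 50.6 TPM, and replicates 1 and 2 of both groups between 0.485 and 2.30 TPM. The labels do not name this split, which is balanced over age. Markers of the proximal tubule summed to between 607 and 2221 TPM in aged and between 642 and 2788 TPM in adult libraries, and none of the 9 markers was at 0 throughout.

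No member passed the test between aged and adult kidneys. With limma on log2(TPM + 1), 0 of the 9 members tested had an adjusted p under 0.05, against 0.0% of all genes, and 0 had an unadjusted p under 0.05, against 3.39% of all genes (0.636% higher and 2.76% lower in aged kidneys). Of the 9, 3 had positive log2 fold changes and 6 negative ones, against 65.0% negative ones among all genes. The median of the 9 was −0.10, against −0.11 over all genes. It was 0.12 under quantile normalization, against 0.0080 over all genes, and 0.19 when mitochondrial genes were removed, against 0.15 over all genes. The aged and adult values did not overlap for 1 member, Sirt3, which was lower in aged kidneys, against 2.46% of all genes in either direction, 0.348% higher and 2.11% lower in aged ones. Every adjusted p of a member by limma was 1.00 in this fit, whose SEs include the spread between the Y-linked classes. With the class as a covariate the log2 fold changes were the same and the SE of every tested member was smaller. No member passed there either, and 8.46% of all genes had an unadjusted p under 0.05.

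**Figure D1:**
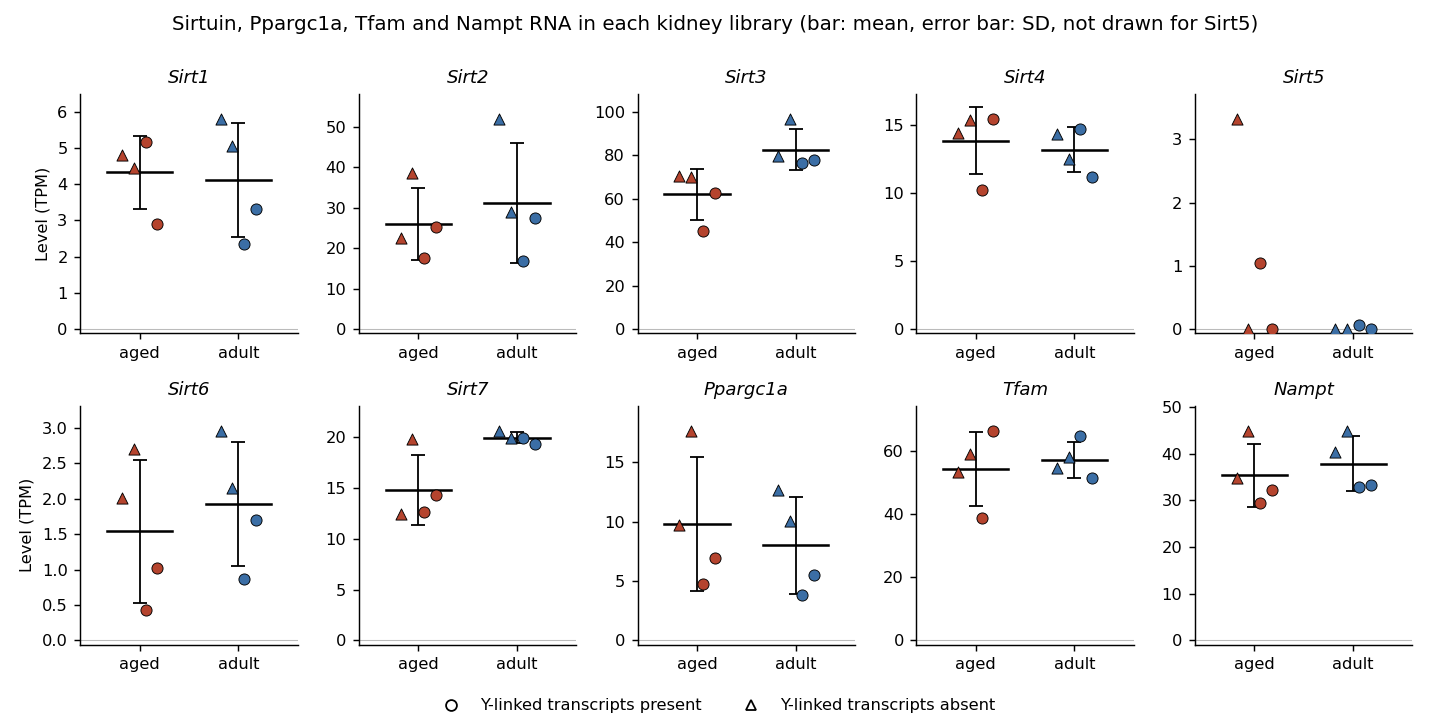
Levels of the 10 genes in TPM (y axis, one scale per gene) in aged and adult kidneys, with 1 point per library, bars at the mean and error bars of 1 SD (n = 4 each). Sirt3 is the gene whose 4 aged points, from 45.4 to 70.3 TPM, all lie below its 4 adult points, from 76.6 to 96.6 TPM. Ppargc1a, Sirt6, Nampt and Sirt3 split by marker shape, with and without Y-linked transcripts, inside each age group.

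Levels spanned a wide range, and their order was the same in aged and adult kidneys by group mean. Over the 8 libraries Sirt3 averaged 72.4 ± 14.7 TPM (SD), Tfam 55.9 ± 8.68, Nampt 36.6 ± 5.996, Sirt2 28.6 ± 11.6, Sirt7 17.4 ± 3.59, Sirt4 13.5 ± 1.98, Ppargc1a 8.90 ± 4.66, Sirt1 4.22 ± 1.22 and Sirt6 1.73 ± 0.898 TPM. Ranges of all neighbours in this order overlapped. Tfam lay above Nampt, and Sirt1 above Sirt6, in all 8 libraries, whereas Sirt7 lay above Sirt4 in 6, and the remaining tested neighbours kept their order in 7. Tfam and Sirt4 varied the least, with coefficients of variation of 15.5% and 14.6%. Ppargc1a and Sirt6 varied the most of the tested members, with 52.3% and 51.9%.

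Sirt3 encodes the main mitochondrial deacetylase and was the most abundant member. The gene lies on the minus strand at chr7:140863666-140882309 (GRCm38). It had 70.3, 70.04, 45.4 and 62.8 TPM in aged replicates 1 to 4, against 79.5, 96.6, 76.6 and 77.8 TPM in adult replicates 1 to 4. All 4 aged libraries were lower than all 4 adult ones, and aged replicate 3 was the lowest. The means were 62.1 ± 11.7 TPM in aged and 82.6 ± 9.38 TPM in adult kidneys (SD, n = 4 each), a log2 fold change of −0.42 (SE 0.23, 95% interval −0.93 to 0.09). The limma p was 0.0958 unadjusted and 1.00 adjusted over all genes, so the difference did not pass. With the Y-linked class as a covariate the unadjusted p was 0.0411 and the adjusted p 0.555 by limma, and Sirt3 was the 1 member of 9 with an unadjusted p under 0.05 there, against 8.46% of all genes. With the mitochondrial genes removed and the libraries rescaled the log2 fold change was −0.12, where that of all genes had a median of 0.15, and with quantile normalization it was −0.17.

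The exons of Sirt3 share 342 bases with those of Psmd13 and 418 with those of Ric8a, both on the opposite strand. The libraries were stranded per the labels' protocols, but no source used here says whether the quantification used strand, so part of the signal could belong to these neighbours. Psmd13, a proteasome subunit gene looked up after the Sirt3 values were seen, had 49.2 ± 10.5 TPM in aged and 63.6 ± 11.5 TPM in adult kidneys (SD, n = 4 each), with −0.37 for its log2 fold change (SE 0.25, limma adjusted p = 1.00). Ric8a, which shares more bases, was not looked up, and the part of either neighbour in the Sirt3 values was not tested.

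Sirt4 encodes a mitochondrial sirtuin with weak deacetylase activity, and its level was nearly the same in both groups. It lies at chr5:115478010-115484725. It had 14.5, 15.4, 10.2 and 15.4 TPM in aged replicates 1 to 4 and 14.3, 12.5, 14.7 and 11.2 TPM in adult replicates 1 to 4. The ranges overlapped, and the log2 fold change was 0.06 (SE 0.24, 95% interval −0.48 to 0.59, limma adjusted p = 1.00). This interval spans changes of either sign, so an unchanged level is not shown.

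Sirt5, the mitochondrial desuccinylase and demalonylase gene at chr13:43365496-43395203, was listed at or close to 0 in 6 of the libraries. It had 3.31 TPM in aged replicate 1 and 1.05 TPM in aged replicate 3, and was at 0 or at most 0.00125 TPM in the other two aged libraries. Adult replicate 3 had 0.0652 TPM and no other adult library had more than 4.47e-06 TPM. The exact two-sided permutation test of the TPM over 70 assignments gave p = 0.257, where 0.0286 is the smallest possible. Of the 31-base words in the annotated Sirt5 transcripts, 16.3% also occur in transcripts of other genes, more than the 0% to 2.19% of the other 9 members. A listed 0 can be a failed estimate, and no mean is read from this gene.

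Sirt7, a nucleolar sirtuin linked to transcription of ribosomal RNA genes, lies at chr11:120618372-120625240. It had 12.4, 19.8, 12.6 and 14.3 TPM in aged replicates 1 to 4, against 20.6, 19.9, 19.9 and 19.4 TPM in adult replicates 1 to 4. The adult libraries lay close together, and 3 aged libraries lay below all of them, while aged replicate 2 reached the adult range. The means were 14.8 ± 3.47 TPM in aged and 19.96 ± 0.531 TPM in adult kidneys (SD, n = 4 each), a log2 fold change of −0.43 (SE 0.24, 95% interval −0.95 to 0.09, limma adjusted p = 1.00). Sirt7 and Mafg share 124 exonic bases on the same strand, and Mafg itself, looked up after the Sirt7 values were seen, had 13.3 ± 3.46 TPM in aged and 13.7 ± 5.34 TPM in adult kidneys (SD, n = 4 each).

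The other sirtuins were lower in abundance or more scattered. Sirt1, which deacetylates p53, FOXO factors and the Ppargc1a protein, lies at chr10:63319005-63381704. It had 4.81, 4.44, 5.16 and 2.89 TPM in aged replicates 1 to 4 and 5.78, 5.05, 2.35 and 3.32 TPM in adult replicates 1 to 4, with overlapping ranges (log2 fold change 0.09, SE 0.30). Without adult replicate 3 that fold change was −0.10. Among the 4 libraries lacking Y-linked transcripts it was −0.19.

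Sirt2, a tubulin deacetylase at chr7:28766735-28788661, had 22.6, 38.6, 17.5 and 25.3 TPM in aged replicates 1 to 4. In adult replicates 1 to 4 it had 51.8, 28.8, 16.8 and 27.4 TPM (log2 fold change −0.20, SE 0.35). Adult replicate 1 was the highest of all libraries, and without it the log2 fold change was 0.07. It was also positive, 0.09, with mitochondrial genes removed.

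Sirt6, a histone deacetylase that acts in DNA repair and glucose metabolism, lies at chr10:81621785-81627797 and was close to the filter. It had 2.01, 2.70, 0.431 and 1.03 TPM in aged replicates 1 to 4 and 2.96, 2.16, 0.862 and 1.70 TPM in adult replicates 1 to 4 (log2 fold change −0.24, SE 0.36). The ranges overlapped, and without aged replicate 3 the log2 fold change was 0.0053.

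**Figure D2:**
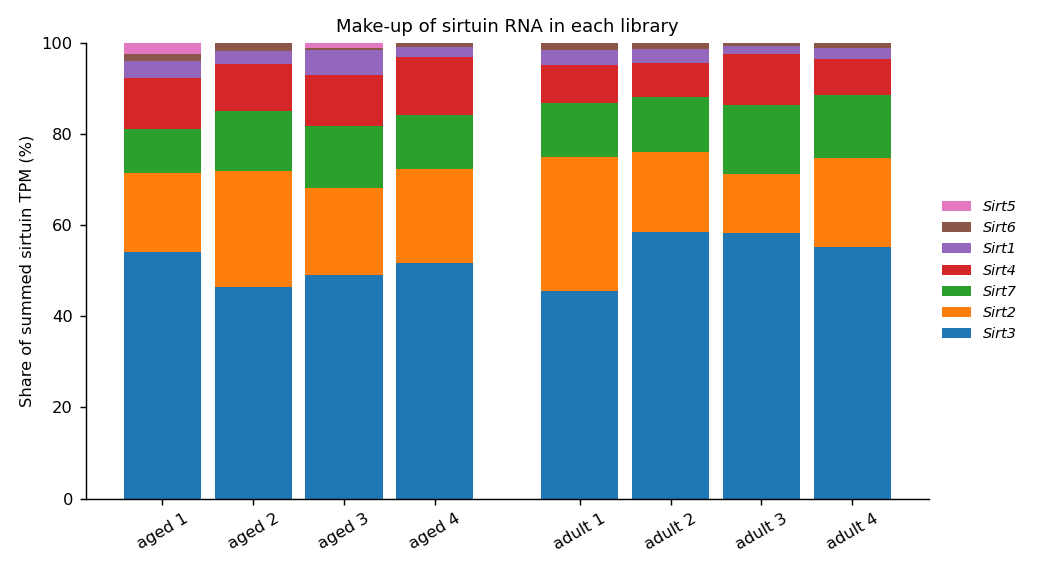
Share of each sirtuin in the summed TPM of the 7 sirtuins (y axis, in percent) for each aged and adult library. Sirt3 takes between 45.4% and 58.5% in every library, and Sirt5 is visible in aged replicates 1 and 3.

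Shares within the sirtuin family are not changed by a scaling common to all genes of a library, such as that set by its mitochondrial share. Whether they vary with the mitochondrial share in another way was not tested. Sirt3 made up 50.3% ± 3.33 of the summed sirtuin TPM in aged and 54.4% ± 6.15 in adult kidneys (SD, n = 4 each), and Sirt2 20.7% ± 3.53 and 19.8% ± 7.09. Sirt4 made up 11.3% ± 1.03 in aged and 8.74% ± 1.67 in adult kidneys. Sirt7 made up 12.0% ± 1.84 in aged and 13.2% ± 1.58 in adult kidneys. The mitochondrial sirtuins together held 62.5% ± 4.75 in aged and 63.1% ± 6.86 in adult kidneys. The summed level of the family was between 92.4 and 151 TPM in aged and between 131 and 175 TPM in adult libraries, so the groups overlapped. These shares are given as a description, with no test.

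Ppargc1a, at chr5:51454250-51567726, was the member with the highest log2 fold change and did not pass. It had 9.75, 17.7, 4.77 and 6.91 TPM in aged replicates 1 to 4, against 12.7, 10.1, 3.79 and 5.54 TPM in adult replicates 1 to 4. In both groups the values of replicates 1 and 2 lay above those of replicates 3 and 4, and the aged and adult ranges overlapped. The means were 9.78 ± 5.65 TPM in aged and 8.03 ± 4.09 TPM in adult kidneys (SD, n = 4 each), a log2 fold change of 0.24 (SE 0.43, 95% interval −0.70 to 1.17, limma adjusted p = 1.00). It was −0.07 without aged replicate 2 and −0.03 without adult replicate 3. With the Y-linked class as a covariate it was again 0.24, with a smaller SE of 0.24 (limma adjusted p = 0.876).

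Tfam lies at chr10:71225464-71238280 and was the second most abundant member. It had 53.6, 59.1, 38.9 and 66.6 TPM in aged replicates 1 to 4 and 54.6, 58.4, 64.9 and 51.6 TPM in adult replicates 1 to 4. Aged replicate 3 was the lowest library, and it is also the one with the highest mitochondrial share, 46.9%. The log2 fold change was −0.09 (SE 0.24, limma adjusted p = 1.00), and it was 0.06 without aged replicate 3, 0.0076 with size factors, 0.16 under quantile normalization and 0.20 when mitochondrial genes were removed. The mitochondrially encoded transcripts that Tfam helps to make averaged 35.9% ± 8.48 of the TPM scale in aged and 22.8% ± 3.02 in adult kidneys (SD, n = 4 each).

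Nampt lies at chr12:32819545-32853349. It had 34.7, 44.9, 29.4 and 32.3 TPM in aged replicates 1 to 4 and 40.4, 44.9, 32.8 and 33.3 TPM in adult replicates 1 to 4. The ranges overlapped, and the log2 fold change of −0.10 (SE 0.24, limma adjusted p = 1.00) lay at the median of all genes. It was 0.12 under quantile normalization and 0.19 when mitochondrial genes were removed.

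**Figure D3:**
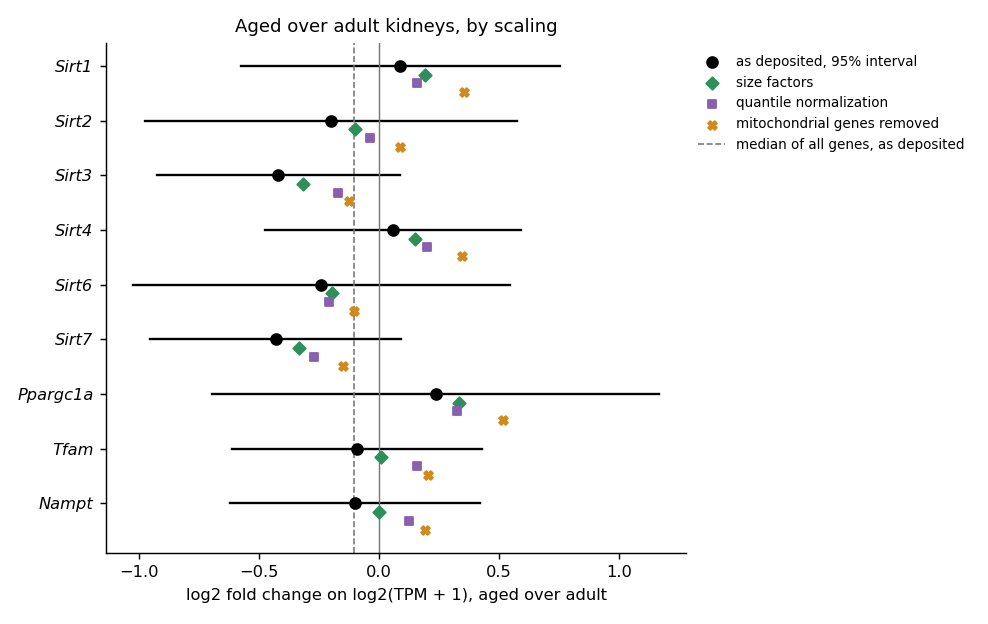
Log2 fold changes of the 9 tested members, aged over adult (x axis), as deposited with the 95% interval (black) and under 3 other scalings (coloured markers). The intervals, from the fit without the Y-linked class, all include 0, and the dashed line marks the median of all genes, −0.11.

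The split by Y-linked transcripts went with larger differences in some members than age did. With age as a covariate, 2 of the 9 members differed between the libraries with and without Y-linked transcripts at a limma adjusted p under 0.05, both lower in those with them, against 12.4% of all genes (1.13% higher and 11.3% lower). All 9 log2 fold changes, with over without, were negative as deposited, but so were 89.2% of all genes, whose median was −0.46. With size factors the median of all genes was 0.01, and 1 member passed, Ppargc1a, lower in the libraries with Y-linked transcripts, against 5.44% of all genes (2.98% higher and 2.46% lower).

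Ppargc1a was lower in the libraries with Y-linked transcripts. The aged pair with Y-linked transcripts had 4.77 and 6.91 TPM and the aged pair without had 9.75 and 17.7 TPM. The adult pair with them had 3.79 and 5.54 TPM and the adult pair without had 12.7 and 10.1 TPM. The 4 libraries with Y-linked transcripts averaged 5.25 ± 1.32 TPM and the 4 without 12.6 ± 3.66 TPM (SD), with no overlap. The log2 fold change was −1.10 (SE 0.24, limma adjusted p = 0.0226), and it passed as well with size factors (−0.60, adjusted p = 0.0424), under quantile normalization (−0.60, 0.0427) and when mitochondrial genes were removed (−0.96, 0.0427). The call was lost without aged replicate 2 (−0.95, adjusted p = 0.0799), aged replicate 3 (−1.02, 0.0803), adult replicate 1 (−1.03, 0.0651) or adult replicate 3 (−1.01, 0.0739). The values of Sirt6 and Nampt did not overlap between the classes either, so this is not particular to Ppargc1a. The share of all genes without overlap between the classes was not computed.

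Other measures moved with the same split, in which 89.2% of all genes were lower as deposited in the libraries with Y-linked transcripts (median −0.46). Markers of the thick ascending limb, none of the 5 at 0 throughout, summed to between 242 and 501 TPM in the libraries with and between 923 and 1999 TPM in those without Y-linked transcripts. Distal convoluted tubule markers summed to between 67.8 and 158 TPM in those with and between 163 and 462 TPM in those without. Principal cell markers had between 56.1 and 118 TPM against between 140 and 282 TPM, in the same order. Intercalated cell markers had between 40.6 and 70.2 against between 89.2 and 115 TPM, and macrophage markers between 61.7 and 125 against between 137 and 298 TPM. The sums of proximal tubule, podocyte and endothelium markers overlapped between the classes. Kap, an androgen-regulated kidney gene, averaged 62381 ± 9199 TPM in those with and 15198 ± 5927 TPM in those without. The 5 brown adipocyte markers, none at 0 throughout, summed to between 0.329 and 2.61 TPM in those with and between 24.3 and 52.3 TPM in those without. Most of that sum was Cox8b, with 0.693 ± 0.647 TPM in those with and 32.9 ± 10.8 TPM in those without. Ucp1 had 0.270 ± 0.256 TPM in those with and 2.54 ± 2.82 TPM in those without. Cidea had 0.189 ± 0.202 TPM in those with and 0.820 ± 0.903 TPM in those without. Both differences lay in adult replicates 1 and 2, with 5.64 and 4.21 TPM of Ucp1 and 1.37 and 1.80 TPM of Cidea. In aged kidneys Ucp1 had 0.123 and 0.173 TPM without and 0.0896 and 0.252 TPM with Y-linked transcripts. Cidea had at most 0.109 TPM in any aged library, so these markers did not follow the split there. The part of these in the Ppargc1a result was not tested, and in bulk tissue fewer cells of a type and less RNA per cell cannot be told apart.

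Sirt6 averaged 1.01 ± 0.527 TPM in the libraries with and 2.46 ± 0.448 TPM in those without Y-linked transcripts (SD, n = 4 each). On the log2 scale the difference was −0.81 (SE 0.23, limma adjusted p = 0.04998, just under the threshold). It did not pass with size factors (−0.49, adjusted p = 0.186), quantile normalization (−0.39, 0.265), mitochondrial genes removed (−0.82, 0.0991) or a pseudocount of 0.1 (−1.32, 0.0588). It also did not pass when any single library other than aged replicate 4 was left out, with adjusted p between 0.0582 and 0.156.

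For the remaining members the class difference did not pass. Sirt2 had −0.65 (adjusted p = 0.121), Sirt1 −0.48 (0.151), Nampt −0.35 (0.148), Sirt3 −0.28 (0.237), Sirt4 −0.14 (0.570), Sirt7 −0.13 (0.606) and Tfam −0.05 (0.843) by limma. With size factors the values of Sirt3, Sirt4, Sirt7, Tfam and Nampt were positive, between 0.20 and 0.51, and with quantile normalization those of Sirt1 and these 5 were positive too. Whether age acted differently in the 2 classes was tested by an interaction term, and 0 of the 9 members passed, against 0.0339% of all genes, and 0 had an unadjusted p under 0.05, against 2.08%.

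**Figure D4:**
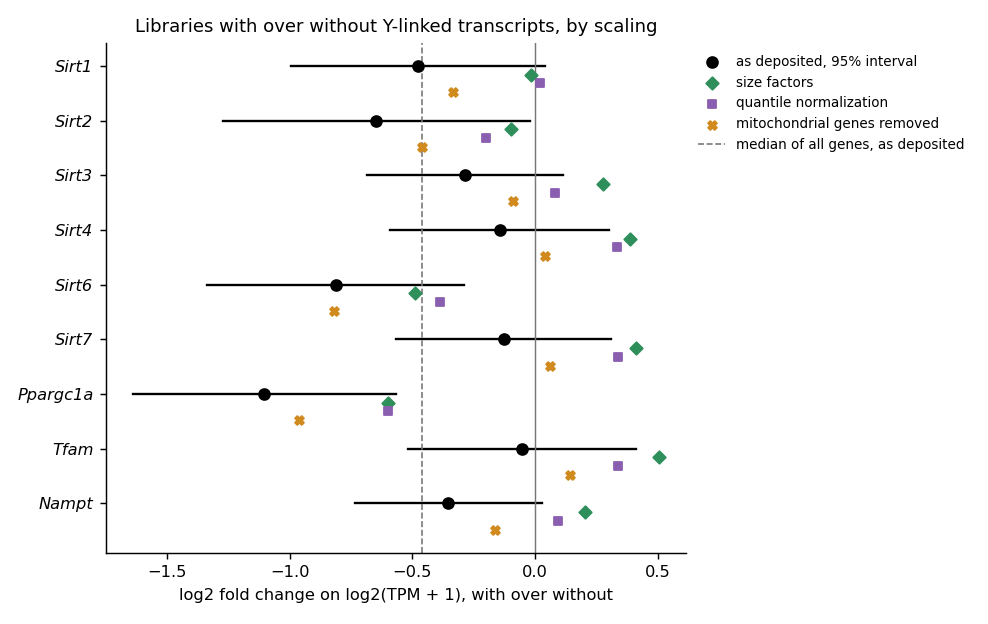
Log2 fold changes of the 9 tested members, libraries with over without Y-linked transcripts with age as a covariate (x axis), as deposited with the 95% interval (black) and under 3 other scalings. Ppargc1a, Sirt6 and Sirt2 lie below 0 under each scaling shown, and the dashed line marks the median of all genes, −0.46.

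Sequence before a RefSeq start is shown for Ppargc1a, the member with the clearest difference between libraries, and for Nampt, as bases that lie in no annotated exon. The Nampt stretch lies inside the gene as the GENCODE annotation places it, past its start at chr12:32819545. All 10 members had promoter entries in RefSeq (GRCm38.p6), 12 in all, of 300 bases each. They were searched on both strands for CACGTG (the E-box of clock and MYC family factors), the palindromic NRF1 element, CCGGAAG (an ETS motif bound by GABPA), AAGGTCA (ESRRA) and TGACGTCA (CREB). No motif of one kind lies inside another. Capitals mark matches, on either strand, and the Ppargc1a stretch holds none.
Ppargc1a, chr5:51567727-51567975, minus strand: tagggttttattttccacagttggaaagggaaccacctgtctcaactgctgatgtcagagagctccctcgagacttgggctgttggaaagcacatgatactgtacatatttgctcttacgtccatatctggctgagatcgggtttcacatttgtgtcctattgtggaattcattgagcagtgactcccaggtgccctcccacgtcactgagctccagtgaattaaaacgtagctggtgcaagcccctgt
Nampt, chr12:32820085-32820334, plus strand: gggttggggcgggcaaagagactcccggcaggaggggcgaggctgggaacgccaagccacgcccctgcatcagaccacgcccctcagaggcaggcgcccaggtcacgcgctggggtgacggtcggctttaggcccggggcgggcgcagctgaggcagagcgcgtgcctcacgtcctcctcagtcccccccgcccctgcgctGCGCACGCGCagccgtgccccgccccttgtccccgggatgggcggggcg

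The NRF1 motif occurred in the windows of 2 members, Nampt and Sirt6, and in 4.603% of all 32851 promoter windows. The ETS motif occurred in those of 4 members, Sirt3, Sirt6, Sirt7 and Tfam, and in 8.86% of all windows. The E-box occurred in that of Sirt1 alone, in 2 places, and in 7.15% of all windows. The ESRRA motif occurred in that of Sirt5 (4.72% of all) and the CREB motif in none (1.79% of all). These are descriptions of letters in a window, and no binding was measured. The counts are of members and the percentages of windows, and the 10 members have 12 windows. The matches before the RefSeq start in Sirt1, Sirt3, Sirt6 and Tfam are shown with 8 bases on either side, and CTTCCGG is the ETS motif read on the other strand. Those of Sirt1, Sirt6 and Tfam lie inside the genes as GENCODE places them. The Sirt3 window that holds its match overlaps annotated exons of Psmd13. The matches of Sirt5 and Sirt7 are not shown.
Sirt1, chr10:63339137-63339158, minus strand: cgcccggcCACGTGacccggcg
Sirt1, chr10:63339065-63339086, minus strand: gggcgggtCACGTGacggggtt
Sirt3, chr7:140882380-140882402, minus strand: ctcgctcaCTTCCGGcaccgcgg
Sirt6, chr10:81627692-81627717, minus strand: tcaggaggGCGCATGCGCtctggaaa
Sirt6, chr10:81627587-81627609, minus strand: cttcaccaCTTCCGGcggaagcg
Tfam, chr10:71238077-71238099, minus strand: gccgcggaCCGGAAGtccgggct

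The genes around the members were described by lists, by counts and medians with no test of the list. The medians of all genes to set beside them are −0.11 as deposited, −0.02 with size factors, 0.0080 under quantile normalization and 0.15 when mitochondrial genes were removed. No gene of any list passed by limma adjusted p, and none had an unadjusted p under 0.05. Of 22 tested genes of NAD synthesis, salvage and use, 5 had positive and 17 negative log2 fold changes, with a median of −0.20 (0.08 with mitochondrial genes removed). Haao, an enzyme of NAD synthesis from tryptophan, had 77.2 ± 23.4 TPM in aged and 109 ± 6.71 TPM in adult kidneys (SD, n = 4 each), and its log2 fold change was −0.54 (SE 0.25). Naprt, which starts NAD synthesis from nicotinic acid, had 7.40 ± 3.83 and 13.2 ± 6.04 TPM in aged and adult kidneys. Nmnat1 and Nmnat3, the nuclear and mitochondrial enzymes that follow Nampt, had 8.83 and 7.86 TPM in aged and 11.5 and 11.6 TPM in adult kidneys.

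Of 24 tested genes for PGC-1 coactivators, their partners and upstream kinases, 13 had positive and 11 negative log2 fold changes (median 0.02). Esrra, the nuclear receptor through which Ppargc1a acts on many mitochondrial genes, had 25.5, 35.6, 17.5 and 29.95 TPM in aged replicates 1 to 4, against 49.2, 42.4, 32.0 and 37.3 TPM in adult replicates 1 to 4. Only aged replicate 2 lay above the lowest adult library (log2 fold change −0.58, SE 0.27, limma adjusted p = 1.00). Ppara, a fatty acid sensor and partner of Ppargc1a, had 21.9 ± 13.0 TPM in aged and 27.7 ± 9.41 TPM in adult kidneys. The kinase subunit genes Prkab1 and Prkag1, of the energy sensor AMPK, had 15.3 and 25.3 TPM in aged and 22.1 and 31.9 TPM in adult kidneys. Ppargc1b was under the filter.

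Of 19 genes of mitochondrial DNA transcription and replication, 4 had positive and 15 negative log2 fold changes, with a median of −0.14 (0.15 with mitochondrial genes removed). Mterf2, a mitochondrial termination factor family gene, had 3.83 ± 1.13 TPM in aged and 5.53 ± 1.75 TPM in adult kidneys, and Polg2, the accessory subunit of the mitochondrial DNA polymerase, 4.41 ± 0.260 and 5.69 ± 1.08 TPM in aged and adult kidneys. Primpol, a primase and polymerase found in mitochondria and nucleus, had 1.38 ± 0.352 TPM in aged and 0.982 ± 0.934 TPM in adult kidneys (log2 fold change 0.39, SE 0.36). Of 14 general mitochondrial genes, 2 had positive and 12 negative values, with a median of −0.21 (0.03 under quantile normalization and 0.09 when mitochondrial genes were removed). Among them Phb2, of the inner membrane prohibitin complex, had 95.8, 114, 81.4 and 99.0 TPM in aged replicates 1 to 4, all below the 167, 133, 120 and 120 TPM of adult replicates 1 to 4 (log2 fold change −0.46, SE 0.22, limma adjusted p = 1.00). It was the only gene of the 8 lists whose groups did not overlap, against 2.46% of all genes (2.11% with aged values lower).

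Of 19 tested substrates of the mitochondrial sirtuins, 2 had positive and 17 negative log2 fold changes, with a median of −0.33 as deposited, −0.22 with size factors, −0.02 under quantile normalization and −0.03 when mitochondrial genes were removed. All genes had −0.11, −0.02, 0.0080 and 0.15 in the same order, so the list lay below them under each scaling, by the least under quantile normalization. Among genes of mean 5 TPM or more, all genes had a median of −0.15 and the list again −0.33. The mean log2 level of the list had an SD of 0.60 between libraries of an age group, so the lower median is a description only. Sdhb, a subunit of complex II, had 378 ± 98.7 TPM in aged and 509 ± 116 TPM in adult kidneys (SD, n = 4 each).

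The other lists had medians between −0.17 and 0.11. Regulators and substrates of the nuclear and cytosolic sirtuins had 9 positive and 10 negative values of 19 (median −0.02), and Rps19bp1, an activator of Sirt1, had 17.5 ± 3.38 TPM in aged and 22.8 ± 5.12 TPM in adult kidneys. Ep300, an acetyltransferase, had 4.08 ± 0.966 TPM in aged and 3.08 ± 1.07 TPM in adult kidneys (log2 fold change 0.34, SE 0.29). The classical histone deacetylases had 3 positive and 7 negative values of 10 (median −0.17, and 0.09 with mitochondrial genes removed). The clock genes, which drive Nampt in a daily rhythm, had 9 positive and 5 negative values of 14 (median 0.11). Arntl, the clock activator, had 0.656 ± 0.447 TPM in aged and 1.79 ± 1.13 TPM in adult kidneys (log2 fold change −0.68, SE 0.39). It was close to the filter, at 0 in aged replicate 4 and at 0.223 TPM in adult replicate 3. The clock repressor genes Per1 and Per2 had 4.68 ± 3.44 and 2.79 ± 0.515 TPM in aged and 2.996 ± 2.03 and 2.14 ± 1.93 TPM in adult kidneys, with log2 fold changes of 0.43 (SE 0.51) and 0.44 (SE 0.37). Ciart, another repressor of the clock, had 2.71 ± 1.119 TPM in aged and 1.95 ± 1.02 TPM in adult kidneys (log2 fold change 0.36, SE 0.35). The aged and adult ranges of Arntl, Per1, Per2 and Ciart all overlapped.

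**Figure D5:**
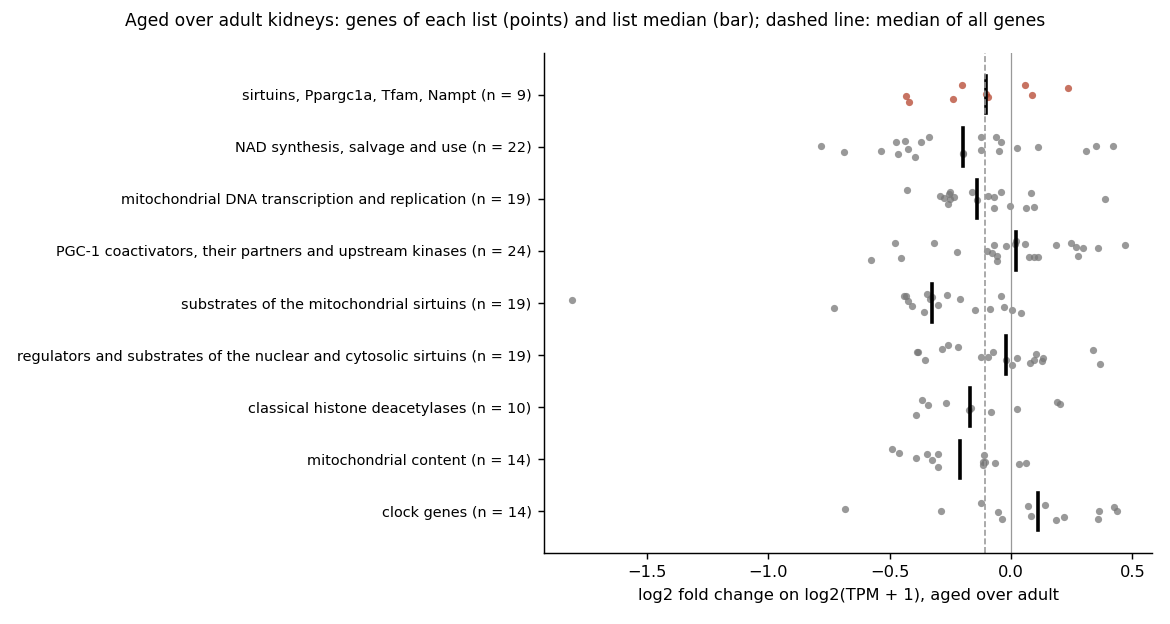
Log2 fold changes, aged over adult (x axis), of the tested members (red) and of the genes of each list (grey), with the list median as a bar. The substrates of the mitochondrial sirtuins have the lowest median, −0.33, and the dashed line marks the median of all genes, −0.11.

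The genes whose levels followed each member most closely over the 8 libraries were found by Pearson correlation of log2(TPM + 1) among genes with a mean of at least 5 TPM. All libraries share the mitochondrial share, the Y-linked split and an unknown depth, so the values describe patterns only. For Sirt3 they were Pomp (r = 0.99), a proteasome assembly factor, Ndufb7 (0.99), a complex I subunit, and Psmb6 (0.98), a proteasome subunit. Sirt7 was followed by Eif5 (0.97), Miip (0.96) and Nmnat1 (0.95), and Tfam by N6amt1 (0.93), Ebag9 (0.92) and Gm12240 (0.92). Ppargc1a was followed by Sall1, Elovl7 and Itprid2 (0.99 each), and 707 of the 7388 genes compared had r above 0.9 with it. For Sirt2 there were 1729 such genes of 7388, led by Pgghg (1.00), Acadvl (0.99) and Slc22a23 (0.99). For Sirt6 there were 1066 of 7389, led by Gnl1 (1.00), Uchl5 (0.99) and Maged2 (0.99). The other members had fewer: 340 for Nampt, 196 for Sirt3, 33 for Sirt7, 6 for Sirt1, 6 for Tfam and 5 for Sirt4. Nampt was followed by Arf2 (0.99), Gstm4 (0.98) and Polr3f (0.97), Sirt1 by Fgfr2 (0.95), Hes1 (0.95) and Atf7 (0.92), and Sirt4 by Cox20, Ppp1r14b and Ei24 (0.91 each). Among the members themselves the highest values were 0.87 for Sirt2 with Sirt6, 0.86 for Sirt6 with Ppargc1a, 0.85 for Sirt6 with Nampt, 0.84 for Ppargc1a with Nampt, 0.83 for Sirt4 with Tfam and 0.82 for Sirt2 with Ppargc1a. The lowest was −0.56, for Sirt1 with Tfam.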

How the data were processed

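Polyadenylated RNA of 8 kidneys, 4 aged and 4 adult, was sequenced as stranded libraries, per the labels' protocols. The deposited values are TPM in 1 table, and the column totals were between 924798 and 950974. Kallisto, DESeq2 and the build GRCm38 appear in the submitters' processing notes, and no source used here gives their versions, their roles or the annotation. Columns were matched to samples by title. Symbols were found for 29732 of 30153 identifiers (98.6%), and 7 with a symbol already present were added to that row. The 4 animals per group are separate animals per the series' design text, and replicate numbers carry no stated pairing.

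Aged libraries were compared with adult ones on the log2(TPM + 1) scale, keeping genes of mean 1 TPM or more. The test was limma (3.58.1, under R 4.3.3) with a trend of the variance on the mean, with Benjamini-Hochberg adjustment over all 11796 genes and a threshold of 0.05. TPM are not counts, and no count model was used. Fold changes on this scale understate those of low genes. The procedure was run on simulated data with independent noise and no shift shared by the genes of a library, so shared shifts like those seen here were not covered. Libraries were also classed at a summed 10 TPM of 4 Y-linked genes. Coordinates, exons and transcripts came from GENCODE M21 (GRCm38) and promoters from RefSeq (GRCm38.p6).

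The members, the gene lists, the promoter motifs and the split by Y-linked transcripts were chosen with earlier results of these data known. Named were all members, up to 4 genes of each list with the smallest p, and the 3 genes most like each tested member. Some list genes that this rule takes are given only in the counts and medians of their lists. Alternatives were other pseudocounts, filters, scalings and variance models, the replicate number as a block, the Y-linked class as a covariate or a limit, and leaving out each library, which for the class difference was added after its result was seen. Markers of skeletal muscle, white adipocytes, T cells, urothelium and adrenal cortex summed to between 0 and 17.9 TPM per library. Those of stroma and smooth muscle summed to between 24.4 and 55.5 TPM, of macrophages to between 61.7 and 298 TPM, of B and plasma cells to between 47.8 and 577 TPM and of red cells to between 933 and 14661 TPM.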

Additional observations from a re-analysis of the deposited data

Results flagged for a closer look

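Of the values of the members, 2 stood apart from the other libraries of their group by Dixon's criterion for 4 libraries, and chance alone gives about 1 such value in 20 groups. Sirt3 had 96.6 TPM in adult replicate 2, above the other adult libraries, and without it the log2 fold change, aged over adult, was −0.34. Sirt5 had 0.0652 TPM in adult replicate 3, a small value set apart because the other adult libraries were at or close to 0.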

How the results depend on the processing

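Between aged and adult kidneys 0 genes passed as deposited, and 0 also passed under other pseudocounts, filters and scalings, with limma without trend or robust, and with the Y-linked class as a covariate. With array weights 1 gene passed, in the 4 libraries with Y-linked transcripts 60, in the 4 without 3, and with single libraries left out between 0 and 2, and no member was among them. With the replicate number as a block 0 genes passed, and 916 had an unadjusted p under 0.05 instead of 400. Same-numbered libraries correlated between 0.04 and 0.49 in their deviations from the group means, and aged replicates 1 and 2 correlated best with another number. These deviations keep the Y-linked split, which goes with the replicate numbers, so the correlations cannot decide on pairing. The numbers carry no stated pairing and were not taken as pairs. Members never passed for age, but signs turned. When mitochondrial genes were removed Sirt2 was 0.089, Tfam 0.20 and Nampt 0.19. Under quantile normalization Tfam was 0.16 and Nampt 0.12. Tfam was 0.0076 with size factors and 0.086 with array weights. Sirt1 was −0.19 in the libraries without and Sirt4 −0.027 in those with Y-linked transcripts. With single libraries left out Sirt1 ranged from −0.099 to 0.24, Sirt2 from −0.45 to 0.073, Sirt4 from −0.013 to 0.19, Sirt6 from −0.45 to 0.0053, Ppargc1a from −0.074 to 0.49 and Tfam from −0.20 to 0.057. For the class difference, quantile normalization gave 0.020 for Sirt1. Size factors and quantile normalization gave 0.28 and 0.083 for Sirt3, 0.39 and 0.33 for Sirt4, 0.41 and 0.34 for Sirt7, 0.51 and 0.34 for Tfam and 0.20 and 0.094 for Nampt. With mitochondrial genes removed Sirt4 was 0.040, Sirt7 0.059 and Tfam 0.14. With single libraries left out Sirt7 ranged from −0.24 to 0.016, Tfam from −0.19 to 0.12 and Ppargc1a from −1.27 to −0.95. The cause of these shifts was not tested. TPM keeps no depth, so the precision of low genes such as Sirt5 and Sirt6 cannot be stated.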
